A study of Mus musculus with 6 samples.

Results

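Genes for 9 subunits of the Polycomb repressive complexes were followed in mouse thymus after X-ray exposure: Ezh2, Ezh1, Eed, Suz12, Rnf2, Ring1, Bmi1, Cbx2 and Cbx7. They were taken from the mRNA table by gene name, each name matched 1 gene identifier, and they make 9 of its 21954 genes. The thymuses came from C57BL mice aged 5 weeks. The control group was 3 unexposed mice, and the irradiated group was 3 mice given 6 Gy of X-rays and sampled 24 h later. The labels name no transgene or engineered allele in either group. They do not state which animal gave which library, so the spread behind each p-value may be partly technical. Values are FPKM, fragments scaled by transcript length and by library depth, so levels can be set side by side between genes. Log2 fold changes are irradiated minus control on the log2(FPKM + 0.1) scale, fitted with limma over the whole table.

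Polycomb proteins keep genes silent through histone marks. Polycomb repressive complex 2 (PRC2) methylates histone H3 at the lysine of the H3K27me3 mark: Ezh2 or its paralogue Ezh1 is the methyltransferase, and Eed and Suz12 are core subunits without which the enzyme does not work. Polycomb repressive complex 1 (PRC1) ubiquitinates histone H2A through the E3 ligases Rnf2 (RING1B) and Ring1 (RING1A), which pair with a PCGF protein such as Bmi1. In canonical PRC1 a chromobox protein such as Cbx2 or Cbx7 binds H3K27me3. Ezh2 is known as the form of dividing cells and Ezh1 as the form that persists in resting ones, and the thymus of a young mouse holds many dividing thymocytes.

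The libraries held an estimated 21900000 to 25600000 fragments. Of 14001 genes averaging at least 0.5 FPKM, limma called 42.4% higher and 20.9% lower after irradiation at a Benjamini-Hochberg adjusted p under 0.05, and the median log2 fold change over all of them was 0.40. That upward shift depended on the scale: quantile normalization moved the median to -0.07 with 3501 genes higher and 4403 lower, against 5933 and 2920 as deposited. Median-ratio scaling moved it to -0.08 with 4371 higher and 4924 lower. The 10 thymocyte markers (Rag1, Rag2, Cd4, Cd8a, Dntt and others) were all lower, their summed level going from 2220 to 2511 FPKM in the controls to 134 to 211 FPKM in the irradiated libraries. All 7 macrophage markers (199 to 289 FPKM against 1386 to 1537 FPKM), all 6 fibroblast markers (59.4 to 79.7 FPKM against 473 to 516 FPKM) and all 6 endothelial markers (2.02 to 2.72 FPKM against 11.8 to 59.6 FPKM) were higher. Airway epithelium markers summed to 3041 FPKM in irradiated replicate 2 and to 45.3 and 44.7 FPKM in irradiated replicates 1 and 3. Skeletal muscle markers summed to 2.99, 119 and 22.7 FPKM and fat cell markers to 72.3, 1355 and 583 FPKM in irradiated replicates 1, 2 and 3, against at most 0.901 and 36.5 FPKM in the controls. B cell markers summed to 12.8 to 15.2 FPKM and 5.53 to 20.2 FPKM. In bulk RNA, fewer cells of a type and less RNA per cell cannot be told apart, and the part of these shifts in the Polycomb values was not tested.

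Of the 9 subunit genes, 5 were lower (Ezh2, Suz12, Rnf2, Cbx2 and Eed), 2 were higher (Ezh1 and Ring1) and 2 did not pass the test (Bmi1 and Cbx7). Against the background of 20.9% lower and 42.4% higher, this list held more decreases and fewer increases, and its median log2 fold change was -0.53 where that of all genes was 0.40. The 2 groups did not overlap for 8 of the 9, Bmi1 being the exception, beside 70.8% of all tested genes. In the authors' deposited table, where 32.5% of 19142 genes were higher and 14% lower at an adjusted p under 0.05, Ezh2, Suz12, Rnf2 and Eed were lower and Ezh1 was higher. The count depended on scale and on single libraries. With quantile normalization 5 members were lower and 1 was higher, and with median-ratio scaling 6 were lower and 0 higher (Ring1 and Ezh1 lost their calls and Bmi1 gained one, at -0.58). Leaving out control replicate 2 left 2 members lower (Ezh2 and Suz12), and leaving out control replicate 1, control replicate 3, irradiated replicate 2 or irradiated replicate 3 left 3.

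**Figure D1:**
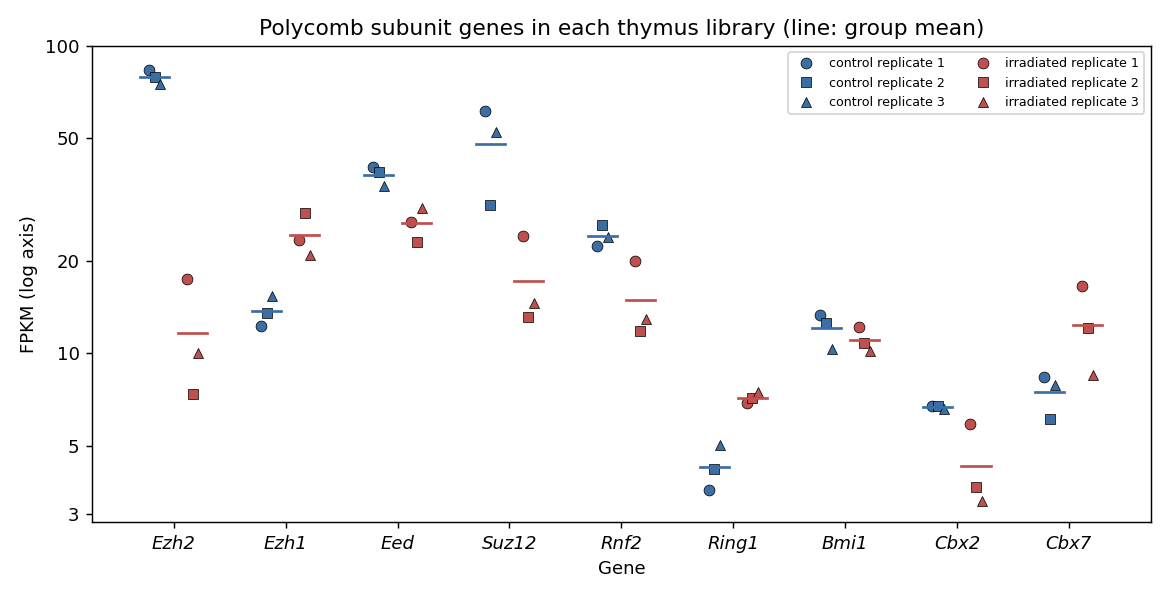
FPKM of the 9 subunit genes on a log axis, with blue symbols for the 3 control libraries, red symbols for the 3 irradiated libraries, and a line at each group mean. Ezh2 goes from 75.4 to 83.3 FPKM in the controls to 7.37 to 17.5 FPKM after irradiation, while Ezh1 goes from 12.3 to 15.4 FPKM to 20.9 to 28.7 FPKM.

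Ezh2, the PRC2 methyltransferase of dividing cells, changed most among the members. It stood at 83.3, 79.0 and 75.4 FPKM in control replicates 1, 2 and 3 and at 17.5, 7.37 and 9.98 FPKM in irradiated replicates 1, 2 and 3. Every control lay far above every irradiated library, of which irradiated replicate 1 was the highest. The control mean of 79.3 ± 3.94 FPKM (SD, n = 3) was 6.81 times the irradiated mean of 11.6 ± 5.28 FPKM. On the log2 scale it fell by 2.85 with a standard error of 0.295 (limma adjusted p = 0.000266), and 216 of the 14001 tested genes, or 1.54%, had a larger decrease. The call stood under all 15 alternatives (other pseudocounts, filters, scalings and models, or 1 library left out), with log2 fold changes from -3.32 to -2.57. The authors' deposited table gives a log2 fold change of -3.01 with an adjusted p of 9.38e-13. The gene (ENSMUSG00000029687) lies on the minus strand of chromosome 6 from 47530139 to 47595341 in GRCm38.

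The start of Ezh2 is shown because it holds motifs known from the promoters of cell cycle genes. The motif search is a description, and a part of these motifs in the changes was not tested. E2F motifs (TTTCCCGC, TTTCGCGC, TTTGCCGC or TTTGGCGC), CHR motifs (TTTGAA or TTCGAA) and CCAAT were searched on both strands of RefSeq's windows from 250 bases before to 50 after each gene start, in GRCm38.p6; no match in the members overlapped another. Of the 9 members 8 had a window. For Ezh2, Eed and Cbx7 RefSeq's start lies inside the gene span given here, because the span reaches on to the start of another transcript; positions are counted from RefSeq's start. The first line below is the stretch of Ezh2 from 153 to 29 bases before RefSeq's start (chr6:47595059-47595183, minus strand, within the gene span but outside every exon annotated in GENCODE M21), with CCAAT on either strand in capitals. The second is the 30 bases around the start (chr6:47595016-47595045, minus strand), with the E2F match in capitals, which covers bases 4 to 11 after the start. Another CCAAT, read on the opposite strand from 11 to 7 bases before the start, lies in this line in lower case.
Ezh2 upstream: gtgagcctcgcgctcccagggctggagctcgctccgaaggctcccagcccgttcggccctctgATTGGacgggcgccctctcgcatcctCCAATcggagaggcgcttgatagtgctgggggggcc
Ezh2 start: ggcgattgggttgctgcgTTTGGCGCtcgg
An E2F match was found in 2 of the 8 members, Ezh2 and Suz12, and in 2.26% of all 32851 windows of this length. CCAAT was found in 4 (Ezh2, Eed, Suz12 and Cbx7) and in 37.4% of all windows. CHR letters were found in 3 (Eed, Suz12 and Cbx7) and in 19.2% of all windows. Ezh1, Rnf2, Ring1 and Bmi1 held none of the 3 motifs in this window.

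Ezh1, the second PRC2 methyltransferase, moved the other way. It stood at 12.3, 13.5 and 15.4 FPKM in the controls and at 23.4, 28.7 and 20.9 FPKM in the irradiated libraries. Every irradiated library lay above every control, with group means of 13.7 ± 1.55 and 24.4 ± 3.99 FPKM (SD, n = 3). Ezh1 rose by 0.82 on the log2 scale, with a standard error of 0.165 (limma adjusted p = 0.00431). Set against the median of all genes the change was 0.42, and median-ratio scaling ended the call at a log2 fold change of 0.35 (adjusted p = 0.0808); the other 14 alternatives kept it. The authors' deposited table gives 0.75 with an adjusted p of 0.0368. The gene (ENSMUSG00000006920) lies on the minus strand of chromosome 11 from 101191115 to 101226463. Its 250 bases before the start (chr11:101226464-101226713, minus strand) held none of the E2F, CHR or CCAAT letters and are printed for comparison with Ezh2.
Ezh1 upstream: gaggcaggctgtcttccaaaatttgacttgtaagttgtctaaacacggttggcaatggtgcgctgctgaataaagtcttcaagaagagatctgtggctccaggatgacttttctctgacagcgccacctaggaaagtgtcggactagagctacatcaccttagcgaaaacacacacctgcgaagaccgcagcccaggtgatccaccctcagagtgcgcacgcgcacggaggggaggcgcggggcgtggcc

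The ratio of Ezh2 to Ezh1 inverted. Ezh2 was 6.78, 5.85 and 4.91 times Ezh1 in control replicates 1, 2 and 3, and 0.749, 0.257 and 0.477 times Ezh1 in irradiated replicates 1, 2 and 3. Ezh2 thus made up 87.2%, 85.4% and 83.1% of the FPKM of the pair in the controls and 42.8%, 20.4% and 32.3% after irradiation. The log2 ratio fell by 3.67, from 2.53 ± 0.23 to -1.14 ± 0.77 (SD, n = 3). An exact two-sided permutation test gave p = 0.1, the smallest that 3 against 3 libraries allow, and the adjusted p over the 9 ratios compared was also 0.1. A ratio within a library does not depend on the scaling between libraries. The summed level of both genes went from 95.6, 92.5 and 90.8 FPKM to 41.0, 36.1 and 30.9 FPKM (exact permutation p = 0.1, 0.2 after adjustment over 4 sums), and in each irradiated library the pair stood below every control.

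Suz12, the scaffold of the PRC2 core, fell. It stood at 61.5, 30.4 and 52.4 FPKM in the controls and at 24.0, 13.1 and 14.6 FPKM after irradiation. Control replicate 2 was the low one of its group and still exceeded irradiated replicate 1, the high one of its own. The means were 48.1 ± 16 and 17.2 ± 5.89 FPKM (SD, n = 3), with a log2 fold change of -1.47 and a standard error of 0.324 (limma adjusted p = 0.00639). All 15 alternatives kept the call, from -1.93 to -1.26. The gene (ENSMUSG00000017548) lies on the plus strand of chromosome 11 from 79993106 to 80034123. Its 250 bases before the start (chr11:79992856-79993105, plus strand) are shown because all 3 motifs occur in them; capitals mark the E2F letters from 219 to 212 bases before the start, the CHR letters (on the minus strand) from 203 to 198, and CCAAT from 61 to 57.
Suz12 upstream: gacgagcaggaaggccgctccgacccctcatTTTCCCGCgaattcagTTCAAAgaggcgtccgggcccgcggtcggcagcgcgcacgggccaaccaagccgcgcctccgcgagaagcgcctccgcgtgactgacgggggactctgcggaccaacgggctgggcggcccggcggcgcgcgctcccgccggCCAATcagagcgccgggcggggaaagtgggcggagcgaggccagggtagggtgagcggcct

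Eed, the subunit that reads H3K27me3 and stimulates the enzyme, fell less. It stood at 40.4, 39.0 and 34.9 FPKM in the controls and at 26.7, 23.0 and 29.7 FPKM after irradiation. The groups lay apart by a small margin, from 29.7 FPKM in irradiated replicate 3 to 34.9 FPKM in control replicate 3. Eed fell by 0.53 on the log2 scale, with a standard error of 0.145 (limma adjusted p = 0.016). Without control replicate 1 or control replicate 2 the call was lost, at adjusted p-values of 0.0649 and 0.0652. Eed (ENSMUSG00000030619) lies on the minus strand of chromosome 7 from 89954654 to 89980983. The 3 PRC2 core genes therefore fell by unequal amounts, by 2.85 for Ezh2, 1.47 for Suz12 and 0.53 for Eed on the log2 scale, and after irradiation Eed had the highest mean of the 9 members.

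Of the PRC1 ligases Rnf2 was lower and, on the deposited scale, Ring1 was higher. Rnf2, which encodes RING1B, stood at 22.4, 26.1 and 23.8 FPKM in the controls and at 20, 11.8 and 12.9 FPKM after irradiation. Irradiated replicate 1 lay close below the controls and the other irradiated libraries well below. Rnf2 fell by 0.73 on the log2 scale, with a standard error of 0.214 (limma adjusted p = 0.0209). Its call was lost without control replicate 2, control replicate 3, irradiated replicate 2 or irradiated replicate 3, at adjusted p-values of 0.0773, 0.0609, 0.0591 and 0.0639. Rnf2 (ENSMUSG00000026484) lies on the minus strand of chromosome 1 from 151458004 to 151500955.

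Ring1, which encodes RING1A, stood at 3.58, 4.20 and 5.04 FPKM in the controls and at 6.87, 7.14 and 7.5 FPKM after irradiation. All irradiated libraries lay above all controls and close to each other. Ring1 rose by 0.75, with a standard error of 0.176 (limma adjusted p = 0.00855). Set against the median of all genes this is 0.35, and the call was lost with quantile normalization (0.17, adjusted p = 0.411) and with median-ratio scaling (0.28, adjusted p = 0.171). In the authors' deposited table Ring1 did not pass, at 0.58 with an adjusted p of 0.225. Rnf2 made up 86.2%, 86.1% and 82.5% of the FPKM of the pair in the controls and 74.5%, 62.3% and 63.2% after irradiation. The log2 ratio of Rnf2 to Ring1 differed by -1.47 between groups that did not overlap (exact permutation p = 0.1). Rnf2 was the more abundant of the pair in every library. Their summed level was 26, 30.3 and 28.8 FPKM before and 26.9, 18.9 and 20.3 FPKM after irradiation, with groups that overlapped (exact permutation p = 0.2, 0.267 after adjustment over 4 sums). Ring1 (ENSMUSG00000024325) lies on the minus strand of chromosome 17 from 34020792 to 34024680.

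Bmi1 (PCGF4), the PCGF partner best known from stem cells, did not pass the test. It stood at 13.3, 12.5 and 10.3 FPKM in the controls and at 12.2, 10.8 and 10.2 FPKM after irradiation, and the groups overlapped. The log2 fold change of Bmi1 was -0.11 with a standard error of 0.154 (limma adjusted p = 0.548). With median-ratio scaling it was -0.58 (adjusted p = 0.0305). Bmi1 (ENSMUSG00000026739) lies on the plus strand of chromosome 2 from 18677018 to 18686629.

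Pcgf2 (MEL18), the closest paralogue of Bmi1, rose. It stood at 0.823, 0.379 and 1.01 FPKM in the controls and at 6.07, 7.12 and 6.96 FPKM after irradiation. Pcgf2 rose by 3.11 on the log2 scale (limma adjusted p = 0.000319) and stayed called under all 15 alternatives, from 2.10 to 3.35. Bmi1 made up 94.2%, 97.1% and 91.1% of the FPKM of both genes in the controls and 66.8%, 60.4% and 59.4% after irradiation, a difference in log2 ratio of -3.22 (exact permutation p = 0.1), or -2.27 with a pseudocount of 1 FPKM. The summed level of Bmi1 and Pcgf2 was 12.7 ± 1.39 FPKM in the controls and 17.8 ± 0.598 FPKM after irradiation (SD, n = 3; exact permutation p = 0.1, 0.2 after adjustment over 4 sums).

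Cbx2 and Cbx7 are the chromobox readers among the members. Cbx2 stood at 6.71, 6.72 and 6.60 FPKM in the controls and at 5.87, 3.67 and 3.31 FPKM after irradiation. The controls were nearly identical, and irradiated replicate 1 lay much closer to them than the other irradiated libraries did. Cbx2 fell by 0.67 on the log2 scale, with a standard error of 0.234 (limma adjusted p = 0.0388). Its adjusted p was the highest of the 5 decreases. The call was lost without the filter on low values (adjusted p = 0.0516) and with summed-FPKM scaling (0.0567). It was also lost without control replicate 1, 2 or 3 (0.101, 0.105 and 0.0963) and without irradiated replicate 2 or 3 (0.102 and 0.107). In the authors' deposited table Cbx2 has an adjusted p of 0.0708.

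Cbx7 stood at 8.36, 6.12 and 7.87 FPKM in the controls and at 16.6, 12.1 and 8.48 FPKM after irradiation. Irradiated replicate 3 lay barely above control replicate 1. The log2 fold change of Cbx7 was 0.69 with a standard error of 0.262 and did not pass (limma adjusted p = 0.0527); without irradiated replicate 3 it was 0.93 (adjusted p = 0.0138). Cbx2 made up 44.5%, 52.3% and 45.6% of the FPKM of this pair in the controls and 26.1%, 23.3% and 28.1% after irradiation, a difference in log2 ratio of -1.36 (exact permutation p = 0.1). Cbx2 (ENSMUSG00000025577) lies on the plus strand of chromosome 11 from 119022962 to 119031270, and Cbx7 (ENSMUSG00000053411) on the minus strand of chromosome 15 from 79915807 to 79971119.

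**Figure D2:**
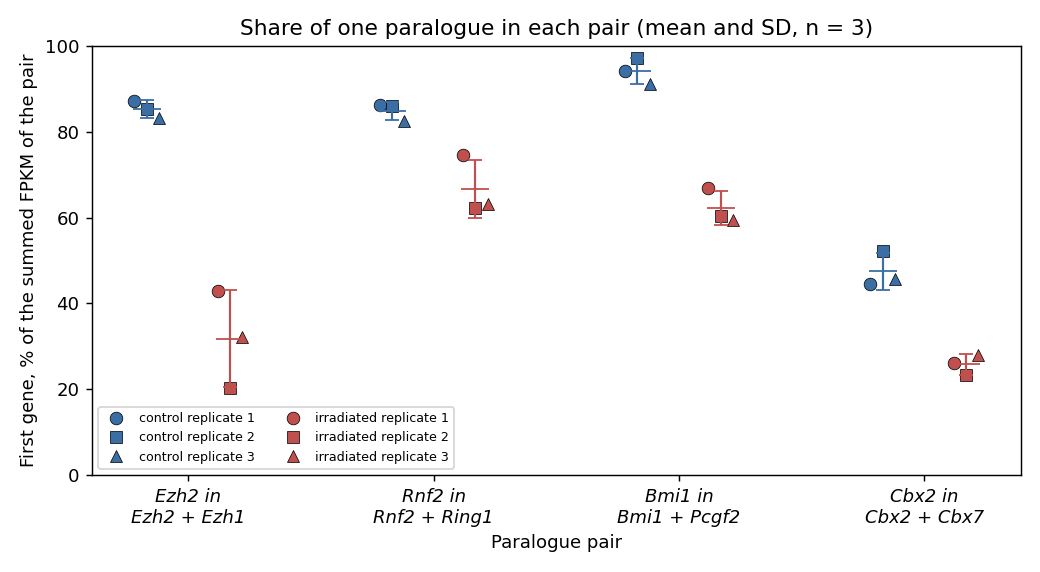
Share of the first-named gene in the summed FPKM of each of 4 paralogue pairs, in percent, with a symbol for each library and crosses at the group mean and SD (n = 3). In every pair the irradiated libraries (red) lie below the controls (blue), and Ezh2 goes from 85.2% ± 2.04 to 31.9% ± 11.2.

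Ezh2 was also set against the chromobox genes of PRC1. The ratio of Ezh2 to Cbx2, Cbx6, Cbx7 and Cbx8 was lower in every irradiated library than in any control: the log2 ratio differed by -2.18 for Cbx2, -2.27 for Cbx8, -3.04 for Cbx6 and -3.54 for Cbx7. For each of these ratios the exact permutation p was 0.1. In the controls Ezh2 was 9.97, 12.9 and 9.59 times Cbx7, and after irradiation it was 1.06, 0.61 and 1.18 times Cbx7.

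The order of the 9 levels changed with it. In the controls Ezh2 was first at 79.3 FPKM, followed by Suz12 at 48.1, Eed at 38.1, Rnf2 at 24.1, Ezh1 at 13.7, Bmi1 at 12.0, Cbx7 at 7.45, Cbx2 at 6.67 and Ring1 at 4.27 FPKM. Neighbours in this order overlapped for Suz12 and Eed, for Ezh1 and Bmi1, and for Cbx7 and Cbx2. After irradiation Eed at 26.5 FPKM and Ezh1 at 24.4 FPKM led, and Ezh2 was sixth at 11.6 FPKM. Every neighbour from Eed down to Bmi1 overlapped the next, so only Ring1 at 7.17 FPKM and Cbx2 at 4.28 FPKM stood apart at the foot.

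The other PRC2 genes, a list of 9 accessory and histone-binding subunits, held 5 decreases and 0 increases, with a median log2 fold change of -0.46. Among all tested genes 20.9% were lower and 42.4% higher. Phf19 (PCL3), one of the Polycomb-like proteins that guide PRC2 to CpG islands, fell by 1.95, from 5.08 to 1.30 FPKM (limma adjusted p = 0.00144). Its relative Mtf2 (PCL2) fell by 1.56, from 50.8 to 17.9 FPKM (adjusted p = 0.00151). The third Polycomb-like gene, Phf1, did not pass at 0.34. Jarid2 fell by 0.65 and Lcor by 0.46. Of the 2 histone-binding WD40 proteins, Rbbp4 fell by 0.69 while Rbbp7 had a log2 fold change of 0.12 and did not pass. Aebp2 at 0.34 and Epop at -0.25 did not pass. Lcor lost its call without control replicate 1 or 3, at adjusted p-values of up to 0.0543, and Epop gained one with quantile normalization (-1.66, adjusted p = 0.00572). By the authors' DESeq2 values Lcor did not pass (adjusted p = 0.0776).

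The other canonical PRC1 genes, again 9, held 1 increase (Pcgf2) and 2 decreases, with a median log2 fold change of 0.00. The share of decreases was near the 20.9% of all tested genes, and that of increases lay below their 42.4%. Cbx8 fell by 0.58 (limma adjusted p = 0.0354) and Phc1, a Polyhomeotic protein that links PRC1 complexes, fell by 0.51 (adjusted p = 0.016). Phc2 at 0.00 and Phc3 at 0.31, the other Polyhomeotic genes, did not pass, nor did Cbx6 at 0.19, Scmh1 at 0.17 or Scml2 at -0.95. By the authors' DESeq2 values Cbx8 passed (adjusted p = 0.0465) and Phc1 did not (0.121), while Scml2 was lower (-1.28, adjusted p = 0.0389). Median-ratio scaling raised the decreases to 5, and 0 were left without control replicate 2 or without control replicate 3. The 16 genes of variant PRC1, which works without a chromobox subunit, held 3 increases and 4 decreases, with a median of -0.16. Here too the share of decreases was near that of all tested genes and the share of increases below it. The most abundant was Usp7, a deubiquitinase, which fell by 1.30, from 106 to 43.1 FPKM (adjusted p = 0.000278), and Mga, a DNA-binding subunit, fell by 0.82. Dcaf7 at 0.28 and Fbrs at -0.21 did not pass. The other decreases were L3mbtl2 (-0.76) and Bcor (-0.59), and the increases were Auts2 (3.41), Yaf2 (0.68) and Pcgf1 (0.52), all 5 named here after their values were seen. Auts2 went from 0.739, 0.535 and 0.880 FPKM to 8.78, 8.96 and 7.76 FPKM. With quantile normalization or median-ratio scaling Auts2 was the 1 increase left, beside 8 or 9 decreases. Of 15 alternatives, 7 ended the call of Pcgf1 and 6 that of Bcor. In the authors' deposited table Yaf2 and Pcgf1 did not pass, at adjusted p-values of 0.427 and 0.624, while Auts2, L3mbtl2 and Bcor passed at 0.05.

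**Figure D3:**
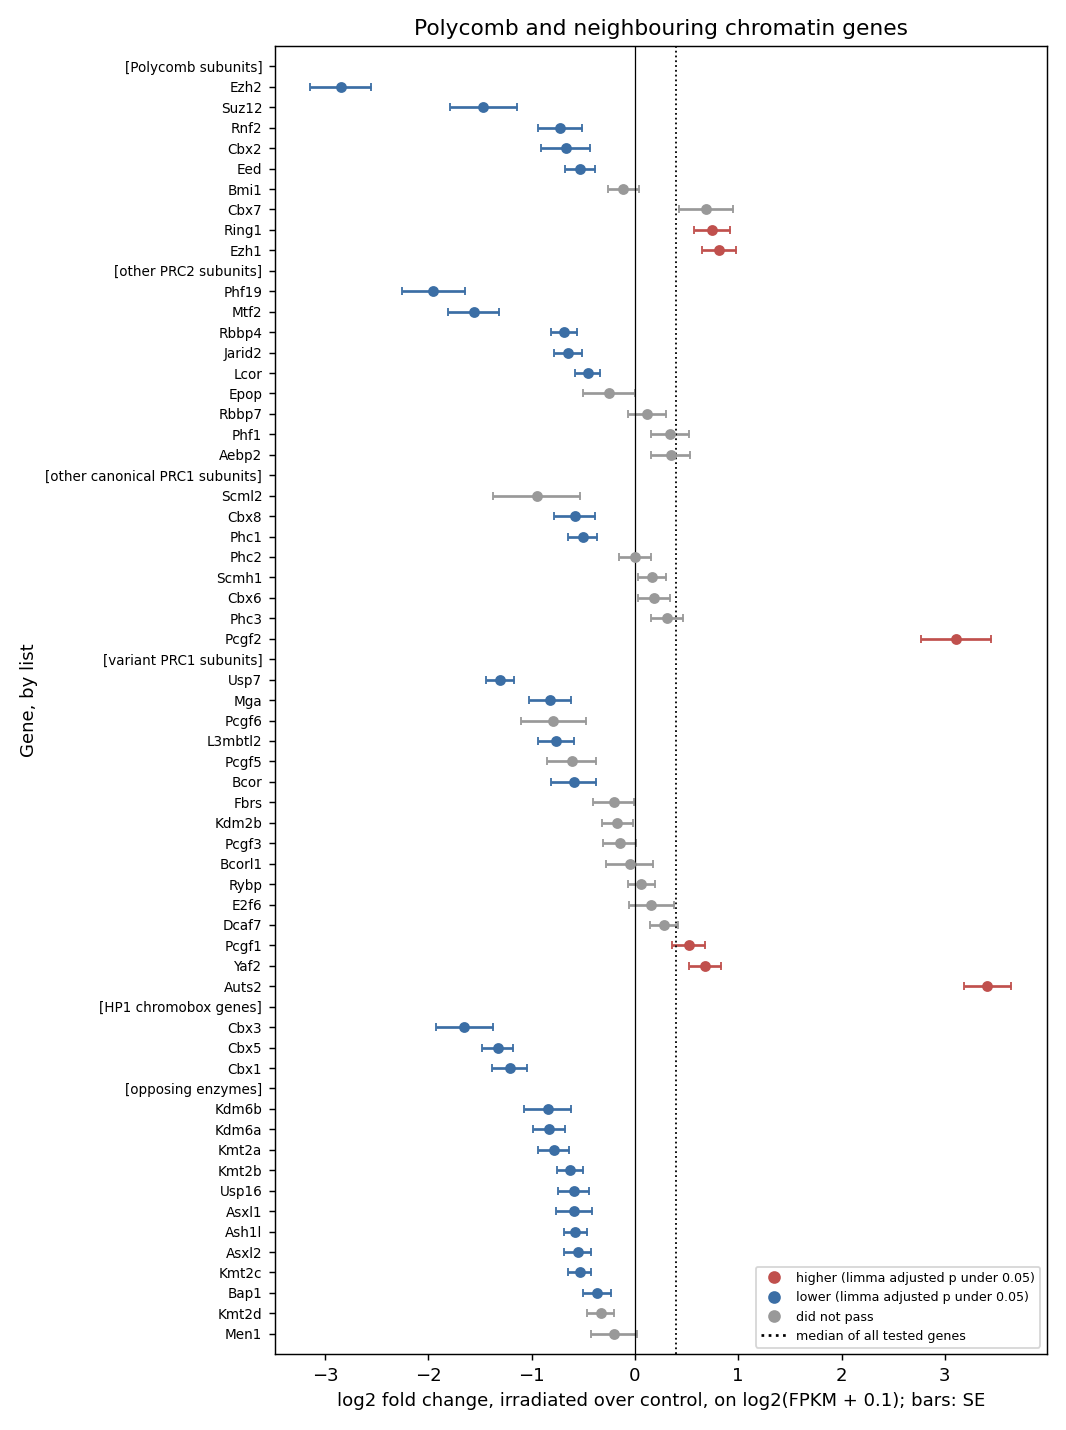
Log2 fold change, irradiated over control, of the 9 subunit genes and of genes in 5 related lists, with bars for the standard error, and a dotted line at the median of all tested genes (0.40). Blue genes are lower and red genes higher at a limma adjusted p under 0.05: Ezh2 at -2.85 lies farthest left, and Pcgf2 at 3.11 and Auts2 at 3.41 farthest right.

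Most genes for enzymes that counter Polycomb marks, and for partners of these enzymes, also fell. Of 13 such genes 12 were tested, 10 were lower and 0 higher, with a median log2 fold change of -0.58 and a range from -0.84 to -0.20. For this list and those below, the shares among all tested genes were 20.9% lower and 42.4% higher. Among the most abundant, Kmt2c, an H3K4 methyltransferase, fell by 0.54, Ash1l, an H3K36 methyltransferase, by 0.58 and Asxl1, a partner of the H2A deubiquitinase Bap1, by 0.59; Kmt2d at -0.33 did not pass. Asxl3, named after its values were seen, averaged 0.446 FPKM and was below the filter. It went the other way, from 0.177, 0.0993 and 0.121 FPKM to 1.01, 0.751 and 0.515 FPKM, and the authors' deposited table gives it a log2 fold change of 2.46 with an adjusted p of 1.14e-05. With no filter, or without control replicate 2 or 3, it was tested and 1 gene of the list was higher. The count of decreases also moved: it was 7 without control replicate 2 or 3, and 8 without control replicate 1 or irradiated replicate 2. Quantile normalization and median-ratio scaling each raised it to 12. Asxl1 lost its call under 3 of 15 alternatives. By the authors' DESeq2 values Kmt2c (adjusted p = 0.0212) and Ash1l (0.0352) were lower, but Asxl1 did not pass (0.0616). The HP1 genes, whose chromobox proteins read H3K9 methylation instead of H3K27me3, all fell: Cbx3 by 1.65 from 89.0 to 29.4 FPKM, Cbx5 by 1.33 and Cbx1 by 1.21 (limma adjusted p = 0.00185, 0.000339 and 0.000846). All 15 DNA replication genes were lower, with a median of -2.02 and a range from -3.13 to -1.02. Of the most abundant ones, Pcna, the polymerase clamp, fell by 2.30, Rrm2, a ribonucleotide reductase subunit, by 3.13, and the helicase subunits Mcm6 and Mcm7 by 1.96 and 1.63. Ezh2 at -2.85 thus lay within the range of the replication genes, while Suz12 at -1.47 lay near its upper end and the other members above it.

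Across single libraries the changes of Ezh2, Rnf2 and Suz12, but not of the other members, ran in the same order as those of the thymocyte and replication lists. The share of all genes in this order was not determined. Measured from the control mean, Ezh2 was at -2.17, -3.41 and -2.98 in irradiated replicates 1, 2 and 3 on the log2 scale. The mean of the 15 replication genes was at -1.75, -2.55 and -1.86, and that of the 10 thymocyte markers at -4.14, -5.42 and -4.63. Irradiated replicate 1 thus had the smallest drop in all 3. Rnf2 was at -0.26, -1.02 and -0.90 and Suz12 at -0.94, -1.81 and -1.65, again smallest in irradiated replicate 1. Eed and Cbx2 did not follow this order: Eed was at -0.51, -0.72 and -0.36, least changed in irradiated replicate 3, and Cbx2 at -0.18, -0.84 and -0.99, most changed there. Ring1 was at 0.69, 0.74 and 0.81, with little difference between the libraries. Ezh1 was at 0.77, 1.07 and 0.61, Cbx7 at 1.16, 0.7 and 0.2 and Bmi1 at 0.03, -0.14 and -0.23, none of them in the order of Ezh2. Endothelial markers, at 2.11, 4.25 and 4.24, and macrophage markers, at 2.51, 2.85 and 2.94, were also least changed in irradiated replicate 1. Fibroblast markers, at 2.8, 2.87 and 2.77, and thymic epithelium markers, at 1.07, 1.2 and 0.61, were instead least changed in irradiated replicate 3. Without irradiated replicate 1 the count of members remained 5 lower and 2 higher. The part of cell make-up in these orders was not tested.

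**Figure D4:**
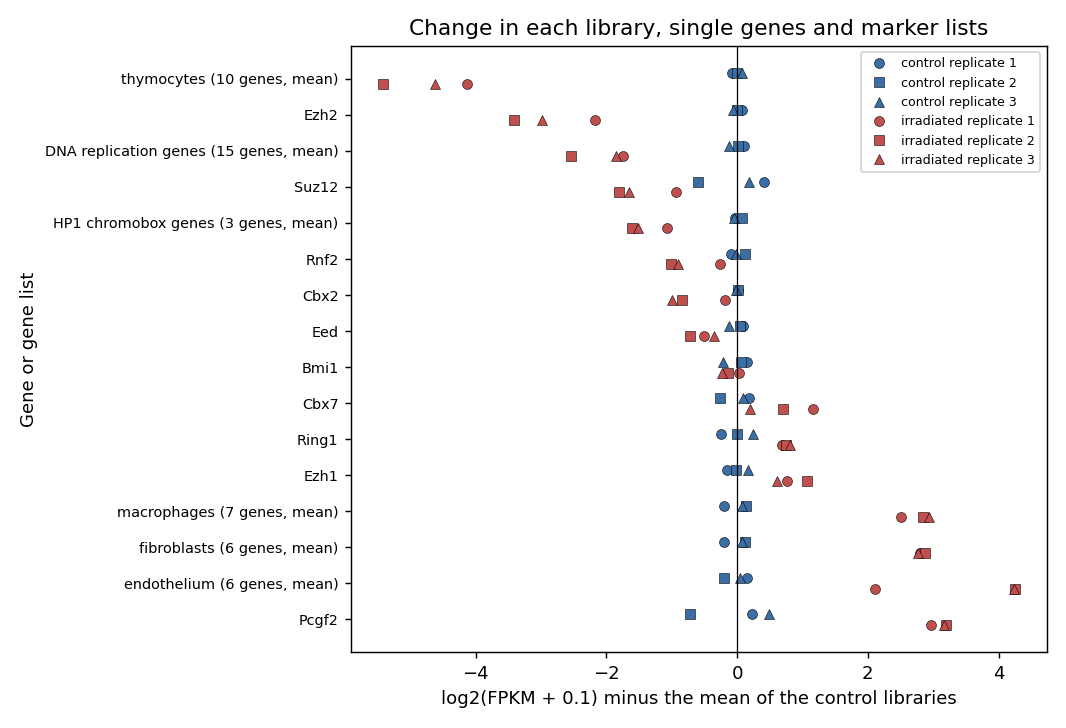
Difference of each library from the mean of the 3 controls on the log2(FPKM + 0.1) scale, for single Polycomb genes and for the mean of marker and pathway lists; blue symbols are controls and red symbols irradiated libraries. In irradiated replicate 1 (red circles) Ezh2 lies at -2.17 and the thymocyte markers at -4.14, above the other irradiated libraries in both rows.

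Genes known from other tissues to be silenced by Polycomb were mostly barely detected. Of 47 classical targets (the Hox genes, Cdkn2a, Cdkn2b, Cdkn2c, Cdkn1c, Pax6, Gata4, Gata6 and Sox17), 18 passed the filter, 14 were higher and 0 lower. Genes that pass only through the irradiated group had to differ, so this count carries no weight as support. It was 6 higher and 1 lower with quantile normalization and 10 higher and 1 lower without irradiated replicate 2. Cdkn2a, which encodes p16INK4A and p19ARF, passed the filter only through the irradiated group: it stood at 0.25, 0.0482 and 0.522 FPKM in the controls and at 1.41, 1.39 and 1.46 FPKM after irradiation, and no test is given for it. Hoxa2 also passed only in this way, with group means of 0.267 and 3.97 FPKM. Cdkn2b, the neighbour of Cdkn2a, stood at 0.801, 0.744 and 1.03 FPKM in the controls and at 2.48, 4.24 and 3.21 FPKM after irradiation (limma adjusted p = 0.00144, and 0.12 with quantile normalization). Among the most abundant, Cdkn1c, a cell cycle inhibitor, rose by 1.80 from 2.35 to 8.67 FPKM and Hoxa3, a gene of thymic epithelium and mesenchyme, by 2.60 from 0.518 to 3.68 FPKM. Cdkn2c, the most abundant of the list, stood at 18.5, 17.1 and 17.3 FPKM in the controls and at 6.6, 26.4 and 17.1 FPKM after irradiation. It did not pass, at -0.29 (limma adjusted p = 0.598), while the authors' deposited table has it lower, at -0.89 with an adjusted p of 0.0445. Beside these increases stand those of the fibroblast markers and of 5 of the 8 thymic epithelium markers, and their part was not tested. The other 3, Psmb11 (-0.78), Prss16 (-0.99) and Ccl25 (-1.37), did not pass. All 8 epithelial markers together summed to 363 to 589 FPKM in the controls and 652 to 849 FPKM after irradiation. Hoxb1, Hoxc12 and Hoxd12 were at 0 in every library.

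Noncoding transcripts of the same 9 genes, given in a separate table, were a further readout. This table lists 28 of them, 17 retained introns and 11 processed transcripts. Summed per gene, every member but Bmi1 was tested, and 3 were lower (Ezh2, Suz12 and Cbx2) and 0 higher. The shares among all 9421 genes tested there were 30.1% lower and 15.8% higher. The share of decreases among these few members was thus near that of all genes, and the share of increases lay below it. The 5 Ezh2 transcripts had a sum of 38.9, 35.1 and 35 FPKM before and 10.7, 3.46 and 5.67 FPKM after irradiation, a log2 fold change of -2.59 (limma adjusted p = 0.00138). Those of Suz12 went from 11.7 to 3.16 FPKM (-1.89, adjusted p = 0.00164) and the 1 transcript of Cbx2 from 0.962 to 0.292 FPKM (-1.64, adjusted p = 0.031). Sums of Eed (-0.50), Rnf2 (-0.77), Ezh1 (0.27), Ring1 (0.18) and Cbx7 (-0.08) did not pass, and the transcript of Bmi1 was below the filter. Without irradiated replicate 1, 5 members were lower. These transcripts share exons with the coding ones, so their values are not independent of the mRNA values.

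Of the 28 transcripts 19 were tested singly, and 8 were lower and 1 higher, beside 24.6% and 8.26% of all 19247. The highest Ezh2 one, the retained intron ENSMUST00000165492 on chromosome 6 from 47533742 to 47545883, stood at 15.1, 13.3 and 12.1 FPKM in the controls and at 2.73, 1.02 and 1.73 FPKM after irradiation. The single increase was an Ezh1 processed transcript, ENSMUST00000151291 on chromosome 11 from 101218395 to 101226442, which went from 0.825, 0.686 and 0.55 FPKM to 1.2, 2.04 and 1.43 FPKM (log2 fold change 1.06, limma adjusted p = 0.034). GENCODE M21 places a gene on the opposite strand within the span of 5 members (Ezh2, Eed, Suz12, Rnf2 and Cbx7). Use of strand in counting is not given in the sources used here, so reads in those overlaps cannot be told apart.

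Genes whose 6 values were most like those of Ezh2 and of Ezh1 were sought among 9113 genes averaging at least 5 FPKM, by Euclidean distance of centred log2 values. Nearest to Ezh2 were Kif22 (distance 0.125), Cks2 (0.217), Kif23 (0.217), Lmnb1 (0.220) and Spc25 (0.228). Kif22 stood at 24.0, 23.5 and 20.6 FPKM in the controls and at 4.73, 1.98 and 2.60 FPKM after irradiation, with the same order of libraries as Ezh2. Kif22 and Kif23 are mitotic kinesins, Cks2 binds cyclin-dependent kinases, Spc25 is a kinetochore protein and Lmnb1 encodes lamin B1. Near Ezh1 were Fam3a (0.125), Dusp16 (0.182), Srebf1 (0.183) and Retreg2 (0.2). Srebf1, a transcription factor of lipid synthesis, stood at 20.8, 22.5 and 25.8 FPKM in the controls and at 37.3, 41.7 and 34.3 FPKM after irradiation. These distances rest on 6 libraries in 2 groups and are a description.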

How the data were processed

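Polyadenylated RNA from thymus was made into NEBNext libraries, per the labels. The authors deposited FPKM per library in an mRNA and a lncRNA table, with log2 fold changes and p-values from DESeq2 1.10.1, a version named in the submitters' processing notes. The aligner, like the counting tool and strand use, is not given in the sources used here. Coordinates match GENCODE M21 (GRCm38): of 58693 mRNA-table transcripts found there, 99.81% have the same start and end. All lines of an mRNA gene carry 1 set of values. The 53001 lncRNA-table transcripts, left after 62 lines of overflow text were dropped, were summed to genes.

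limma 3.58.1 (R 4.3.3) was fitted to log2(FPKM + 0.1) of genes averaging at least 0.5 FPKM, per table, with group alone and an abundance trend; the pseudocount understates the change of low genes. P-values were Benjamini-Hochberg adjusted over the table, at a threshold of 0.05. Ratios and sums were tested by exact two-sided permutation (scipy 1.17.1; smallest p 0.1). Depth was estimated from the smallest FPKM steps.

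The members and gene lists were chosen with earlier results of these data known. Named are all members, all genes of the other PRC2, other canonical PRC1 and HP1 lists, the 4 most abundant of the other lists, Cdkn2a, Cdkn2b, and the 5 genes nearest to Ezh2 and to Ezh1. Results for 2 of these genes are not reported here.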

Additional observations from a re-analysis of the deposited data

How the results depend on the processing

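Decreases of Ezh2 and Suz12 and the increase of Pcgf2 passed under all 15 alternatives, and no member changed sign under any of them. Quantile normalization gave 3501 mRNA genes higher and 4403 lower, with 1 member higher; median-ratio scaling gave 4924 lower, with 0 members higher. Leaving out 1 library at a time gave 2 to 5 members lower. In the lncRNA table, dropping the filter gave 2286 genes higher, among more genes tested. Testing single transcripts gave 4726 of 19247 lower, or 24.6%, where the main fit on summed genes had 2840 of 9421, or 30.1%. Leaving out 1 library at a time, an alternative chosen after seeing the data, gave 1656 to 3823 genes lower and 2 to 5 members with lower noncoding sums. The cause was not tested. The 9 log2 ratios kept their direction under the alternatives, Ezh2 to Ezh1 between -4.03 and -3.26. Deviations of same-numbered libraries correlated at 0.06, -0.043 and 0.052, and those of differently numbered ones at -0.096 to 0.056. These values give no sign of pairing by number but cannot exclude it. With a replicate block 5693 genes were higher and 2662 lower, and among the members 3 were higher and 5 lower. Cbx7 was the one added (0.69, limma adjusted p = 0.0494). With 3 libraries a group, no exact test could pass 0.05.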
